A study of Mus musculus with 5 samples.

Results

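The regions described here are places in the genome where Pou4f1 CUT&Tag signal was found beside the start of a gene that does not encode a protein, with no protein-coding start nearby. CUT&Tag maps a protein on chromatin by sending a transposase to the antibody bound to it, so that DNA next to the protein is tagged and sequenced. A region was taken when its midpoint lay within 1 kb of a transcript start of a gene that GENCODE M21 (mm10) does not class as protein_coding, and over 1 kb from every protein-coding start. This held for 199 of the 8038 regions that the authors deposited. Of the rest, 4948 lay within 1 kb of a coding start and 2881 lay over 1 kb from every start. A further 830 regions had both kinds of start within 1 kb, are part of the coding set, and are not described here. The libraries were made from wild-type mouse retinas at E16.5, a stage when ganglion cells are forming among progenitors and other young neurons. Before dissociation 4 retinas were pooled, and the methods do not say whether each library had its own pool. Values were deposited for 2 libraries made with rabbit anti-Pou4f1 and for 2 taken as rabbit IgG, with 1 column headed IgG and 1 headed as a negative, called negative control here. Whole retinas were used, so the signal cannot be assigned to a cell type. The libraries of a group are labelled as replicates, and p-values measure only the spread between these libraries.

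Pou4f1 (Brn3a) is a POU-domain transcription factor of retinal ganglion cells, the neurons whose axons form the optic nerve. POU factors read AT-rich DNA through a pair of linked DNA-binding domains. Noncoding RNA genes give RNAs that are not translated into protein. Long intergenic noncoding RNAs (lincRNAs) lie between coding genes, antisense RNAs run against one, and hosts carry microRNAs or snoRNAs in their introns or exons. Small nuclear and nucleolar RNAs are the working parts of splicing and of ribosomal RNA processing. The mammalian genes for U1 and U2 carry, upstream of the RNA, a distal element that commonly holds the octamer ATGCAAAT, a site known for other members of the POU family.

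By the nearest start, the 199 regions fell to 84 lincRNAs, 28 processed transcripts, 24 TEC loci, 21 antisense RNAs, 9 snRNAs, 8 microRNAs, 4 snoRNAs and 17 pseudogenes of several types. The remaining 4 were 1 each of misc_RNA, sense_intronic, bidirectional_promoter_lncRNA and IG_V_gene. TEC is GENCODE's class for loci with transcript evidence that still awaits an experiment. The name noncoding RNA start therefore does not suit every region, since a pseudogene or an immunoglobulin gene segment is counted by the rule only because it is not classed as protein_coding. Zswim6 is another case, since the annotation lists it as a processed transcript while its name belongs to a gene for a zinc finger protein. In 28 regions more than 1 noncoding gene had a start within 1 kb, and the 199 regions had 198 distinct nearest genes, Gm9754 being nearest to a pair of regions.

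The sequences that carry the main contrast among these regions are of 3 kinds. The first is the POU motif, searched as ATNAAT followed by AATT or TATT on both strands within the central 200 bp of a region. It occurred in 11 of the 199 regions, and 40 bases (GRCm38.p6, 5′ to 3′ on the strand of the match) are shown for 10 of them, with the motif in capitals. Where several matches overlap, 1 is shown. They lie on the plus strand at chr6:103563477-103563516 (Gm44441), chr10:126718604-126718643 (Gm47966), chr10:105339980-105340019 (Gm48206), chr13:99100586-99100625 (Gm807), chr3:104501026-104501065 (A530041M06Rik), chr12:105899095-105899134 (Gm19554) and chr16:93368173-93368212 (1810044K17Rik), and on the minus strand at chr7:122312752-122312791 (Gm45191), chr6:33038541-33038580 (Gm14540) and chr14:78247281-78247320 (Gm23652).
Gm44441: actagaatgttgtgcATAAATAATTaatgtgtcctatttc
Gm47966: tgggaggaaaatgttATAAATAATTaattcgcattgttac
Gm48206: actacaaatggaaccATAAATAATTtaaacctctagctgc
Gm807: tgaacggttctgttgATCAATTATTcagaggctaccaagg
A530041M06Rik: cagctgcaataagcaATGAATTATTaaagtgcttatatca
Gm19554: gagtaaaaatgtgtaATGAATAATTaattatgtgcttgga
1810044K17Rik: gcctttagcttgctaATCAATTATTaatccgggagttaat
Gm45191: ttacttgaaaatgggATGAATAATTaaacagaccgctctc
Gm14540: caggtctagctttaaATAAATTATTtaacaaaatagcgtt
Gm23652: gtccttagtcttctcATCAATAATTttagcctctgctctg

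The second kind is the octamer ATGCAAAT, shown in capitals within 30 bases for the snRNA genes of the set that have it and for Mir210. The 4 U2-type sequences are from Rnu2-10 (chr11:101657996-101658025, plus strand), Gm24950 (chr11:101641506-101641535, plus strand), Gm23971 (chr11:101646145-101646174, minus strand) and Gm24497 (chr1:72243973-72244002, plus strand). Gm24407 is at chr5:115490016-115490045 on the minus strand and Mir210 at chr7:141221763-141221792 on the plus strand.
Rnu2-10: ctgggcggggcATGCAAATaaggacgccgc
Gm24950: gtgggcggggcATGCAAATaaggacgcggc
Gm23971: gtgggcggggcATGCAAATaaggacgcggc
Gm24497: gggggcggggcATGCAAATcatactcggcg
Gm24407: tggggactcttATGCAAATcgagtcaacgt
Mir210: ccccgccccatATGCAAATagtctatcttg

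The third kind is a GC-rich promoter without either POU sequence. Windows from RefSeq (GRCm38.p6), 250 bases before to 50 after the start, are shown for Miat (chr5:112228899-112229198), Snhg8 (chr3:123508287-123508586) and Crnde (chr8:92356071-92356370), all on the minus strand and each lying wholly within its region. Capitals mark the GC box (GGGCGG, or CCGCCC on the other strand) and the CCAAT box (CCAAT or ATTGG).
Miat: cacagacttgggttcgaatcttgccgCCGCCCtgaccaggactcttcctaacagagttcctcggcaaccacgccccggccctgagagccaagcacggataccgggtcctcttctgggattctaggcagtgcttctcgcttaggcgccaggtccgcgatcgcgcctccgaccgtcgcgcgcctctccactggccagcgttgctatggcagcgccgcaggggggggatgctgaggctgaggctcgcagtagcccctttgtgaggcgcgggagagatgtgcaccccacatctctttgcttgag
Snhg8: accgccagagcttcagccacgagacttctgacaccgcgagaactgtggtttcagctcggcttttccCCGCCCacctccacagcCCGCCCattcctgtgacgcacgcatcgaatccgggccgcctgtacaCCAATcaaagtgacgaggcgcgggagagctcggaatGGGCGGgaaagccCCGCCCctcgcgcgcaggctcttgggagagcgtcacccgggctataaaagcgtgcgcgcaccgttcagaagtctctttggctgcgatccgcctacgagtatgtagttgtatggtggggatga
Crnde: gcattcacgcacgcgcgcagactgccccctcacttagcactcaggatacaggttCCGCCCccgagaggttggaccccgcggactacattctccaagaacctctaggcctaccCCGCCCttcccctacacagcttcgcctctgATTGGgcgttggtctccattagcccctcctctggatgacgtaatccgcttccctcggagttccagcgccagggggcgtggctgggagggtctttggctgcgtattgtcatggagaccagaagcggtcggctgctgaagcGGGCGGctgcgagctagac

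The Miat window holds 1 GC box and no CCAAT box, that of Snhg8 4 GC boxes and 1 CCAAT box, and that of Crnde 3 and 1. Of the 32851 RefSeq windows of this length, 35.7% hold a GC box, 37.4% a CCAAT box and 1.74% the octamer. A window was given for 75 of the 199 nearest genes by symbol. A match is a description of the letters and not a binding site.

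Most of these regions lay outside coding genes. The midpoint of 158 lay outside every coding gene, 33 lay in an intron of one and 8 in an exon. The nearest coding start was over 1 to 2 kb away in 17 regions, over 2 to 10 kb in 43, over 10 to 50 kb in 77, over 50 to 100 kb in 28 and farther in 34, with a median of 25.1 kb. The midpoint sat close to the noncoding start itself, with a median offset of -13 bp (interquartile range -264.5 to 158, negative values lying upstream), and 153 regions covered the start. Of the 21 regions at antisense starts, 15 had their midpoint inside a coding gene.

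The limit of 1 kb cut through a continuous range. The regions just inside were at Gm8022 (990 bp from the start, signal 190.1 and 289.9 in Pou4f1 replicates 1 and 2, 15.99 and 18.6 in IgG and negative control), Gm48216 (975 bp) and Gm38123 (965 bp). Gm38123 had 191 and 263 in Pou4f1 with both IgG libraries at 0. Just outside lay Mir6346 at 1001 bp with 186, 252, 21.7 and 22.7 in the same order of libraries, B930059L03Rik at 1003 bp with 103, 125, 15.5 and 0, and Gm45833 at 1017 bp with 194, 207, 39.2 and 0. On the side of the coding limit, the region at Gm4675 lay 1046 bp from the start of Sox21 and that at 9530052E02Rik 1046 bp from Irs2, while Gm10605 was left out at 979 bp from Tpbgl.

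The median Pou4f1 signal at noncoding starts was level with that at coding starts in replicate 1 and above it in replicate 2. The deposited values are a signal per region, not read counts, and no source used here states their scaling. The median signal of the 199 regions was 183 in Pou4f1 replicate 1 and 155 in replicate 2, with 5.402 in IgG and 5.69 in negative control. At coding starts these medians were 183, 130, 5.52 and 10.3, and away from starts they were 188, 231, 0.922 and 0. The authors chose the regions from Pou4f1 signal, so an excess over IgG was part of how the table was made. Each Pou4f1 value exceeded each IgG value in 195 of the 199 regions, beside 96.5% of the whole table, and each lay below in 1, beside 1.46% of the table.

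In 127 of the 199 regions (63.8%) the signal was higher in Pou4f1 than in IgG at an adjusted p under 0.05 (limma on log2(signal + 1), n = 2 and n = 2, Benjamini-Hochberg over all 8038 regions), and in 0 it was lower. Over the table, 64.8% were higher and 0.224% lower, so noncoding starts were called about as often as other regions. The median log2 difference was 5.30, beside 5.22 over the table. The calls went with the zeros of IgG. Where IgG and negative control were both 0, all 42 regions were called, where 1 was 0, 40 of 98, and where neither was, 45 of 59. Over all regions on chromosomes the same counts were 1828 of 1834, 1386 of 3514 and 1988 of 2680, so this pattern was not particular to noncoding starts. The scaling between antibodies and the choice of libraries also moved the count, to 64 with IgG taken as 2 times shallower (36.7% of all regions then), to 55 and 58 without Pou4f1 replicate 1 or 2, and to 191 and 193 without IgG or the negative control, so a region that was not called was not shown to lack signal.

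**Figure D1:**
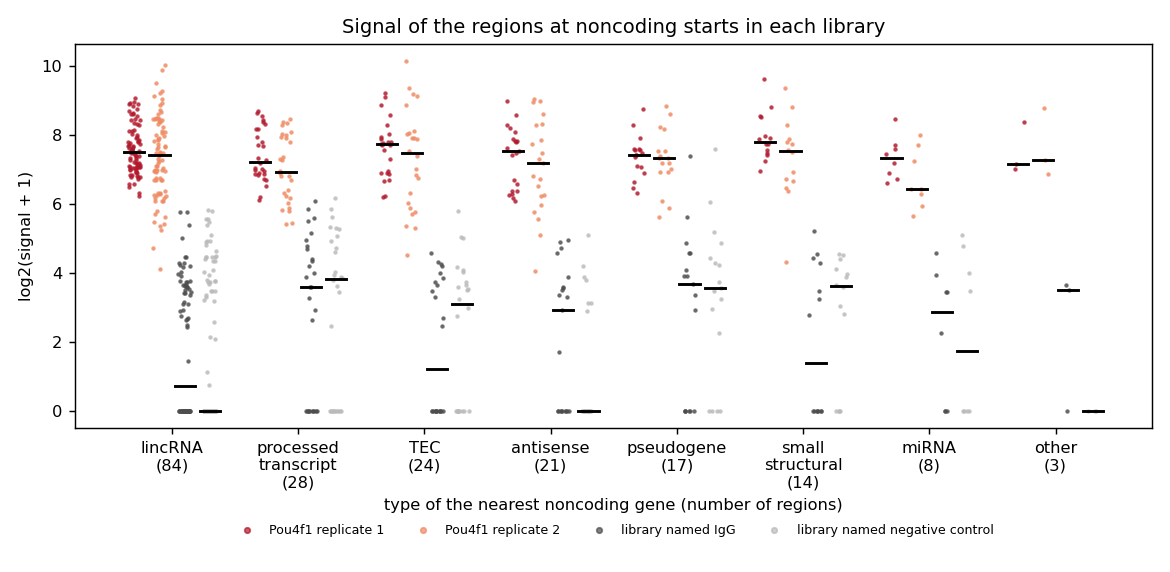
Signal of each region on the log2(signal + 1) scale (vertical axis) in the 4 libraries, by the type of the nearest noncoding gene, with the number of regions in parentheses. Each point is 1 region and the short black lines are medians; the Pou4f1 points lie above nearly all IgG points in every type, and many IgG values are 0.

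The ranges of Pou4f1 signal overlapped between all types of gene. Median values in replicates 1 and 2 were 180 and 171 at lincRNAs, 149 and 121 at processed transcripts, 212 and 178 at TEC loci, 184 and 144 at antisense RNAs, 171 and 160 at pseudogenes, 225 and 185 at small structural RNAs and 161 and 85.3 at microRNAs. These medians come from the same pair of libraries, so they carry no test. Called higher were 58 of 84 lincRNA regions, 17 of 28 at processed transcripts, 16 of 24 at TEC loci, 12 of 21 at antisense RNAs, 9 of 17 at pseudogenes, 11 of 14 at small structural RNAs (snRNA, snoRNA and misc_RNA together) and 2 of 8 at microRNAs, beside 64.8% over the table. The microRNA group is small, and none of its 8 regions was at 0 in both IgG libraries.

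The regions were of 2 kinds by base composition. With at least 200 bp, a GC content of at least 50% and an observed over expected CpG ratio of at least 0.6 counted as CpG-island-like, 88 of the 199 were so (44.2%, 95% exact binomial interval 37.2 to 51.4), between 86.6% at coding starts and 8.54% away from starts. These and the other intervals cover counting error only and treat regions as independent. By type the share was 18 of 28 at processed transcripts, 12 of 24 at TEC loci, 35 of 84 at lincRNAs and 4 of 21 at antisense starts. The median GC content of the noncoding set was 56.9%, against 62.9% at coding starts and 49.0% away.

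**Figure D2:**
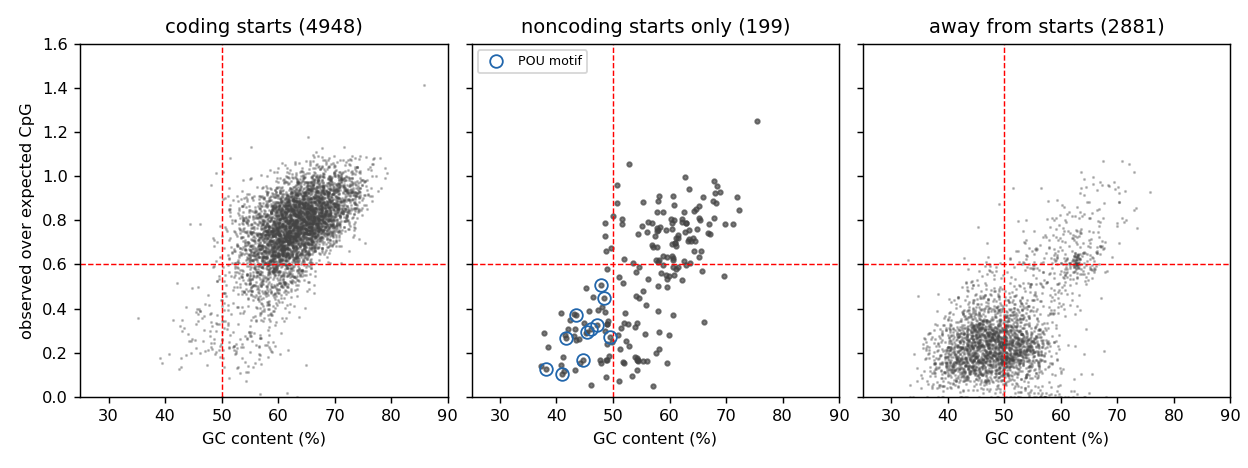
GC content in percent (horizontal axis) against the observed over expected CpG ratio (vertical axis) of each region at coding starts (4948), noncoding starts only (199) and away from starts (2881). Dashed lines mark 50% and 0.6, and blue rings the 11 noncoding-start regions with a POU motif in their central 200 bp, all in the lower left of a panel that spans both clouds of points.

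The POU motif was confined in this set to regions that were not CpG-island-like. It lay in the central 200 bp of 11 of the 111 such regions (9.91%, 95% exact binomial interval 5.05 to 17.04) and of 0 of the 88 CpG-island-like ones, which allows a share of up to 4.11%. In the whole region the numbers were 27 of 111 (24.3%) and 0 of 88. Over all 199 the central share was 5.53% (interval 2.79 to 9.68), and equally long windows placed 2 kb to each side held the motif in 1 of 398 cases (0.251%). At coding starts 0.485% held it, and away from starts 11.1%. Among regions that were not CpG-island-like, coding starts had it in 2.86% (19 of 665) and regions away from starts in 12.1% (318 of 2635), with median GC contents of 57.2% and 48.4% beside 50.9% at noncoding starts. The letters of the motif are mostly A and T, so its share can move with GC content, and the part of base composition in these shares was not tested.

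The GC box went the other way. In the central 200 bp it occurred in 47 of the 88 CpG-island-like regions (53.4%, exact binomial interval 42.5 to 64.1) and in 13 of the other 111 (11.7%, interval 6.39 to 19.2), near the 54.7% of coding starts and the 8.47% of regions away from starts. The CCAAT box did not separate them, at 13.6% and 22.5%. The homeodomain core TAATTA, which shares letters with the POU motif, was in 0 of 88 and 9 of 111. The GC box is made of G and C and holds a CpG, and TAATTA is made of A and T. Their shares are thus tied to the composition that defines the split, and the size of that part was not tested.

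**Figure D3:**
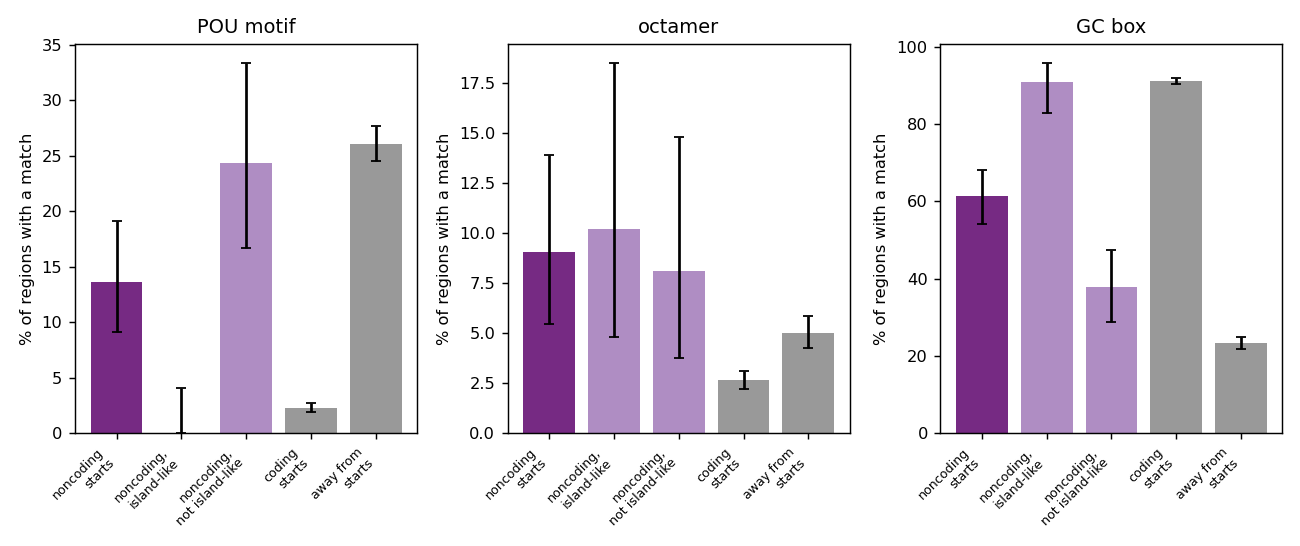
Percent of whole regions with at least 1 match to the POU motif, the octamer ATGCAAAT and the GC box (vertical axes start at 0), for all 199 noncoding-start regions, their CpG-island-like (88) and other (111) parts, coding starts (4948) and regions away from starts (2881). Error bars are 95% exact binomial intervals; the POU bar is 0 in the CpG-island-like part and the GC box is high there, and whole regions differ in length.

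Over the whole set, both Pou4f1 replicates ranked the regions alike but not at equal height. Pearson's coefficient over the 199 regions was 0.792 and Spearman's 0.798, a description across regions that share their libraries. Replicate 2 divided by replicate 1 had a median of 0.838, with 31 regions more than 2-fold higher in replicate 1 (15.6%, 95% exact binomial interval 10.8 to 21.4) and 8 in replicate 2 (4.02%, interval 1.75 to 7.77). Over all regions on chromosomes these shares were 15.3% and 3.44%. The 8 microRNA regions were an exception, with a Spearman's coefficient of 0.119, beside 0.770 to 0.868 in the larger types. Of these 8, 5 were more than 2-fold higher in replicate 1 (interval 24.5 to 91.5). The ratio went with composition in this set. It was 0.750 in CpG-island-like regions and 0.965 in the others. All 8 regions more than 2-fold higher in replicate 2 were among the others, 0 of 88 against 8 of 111. In the same order the median ratio was 0.692 and 0.751 at coding starts, a smaller gap, and 0.740 and 1.21 away from starts, a wider one. In the 11 regions with the POU motif the median ratio was 1.31, and 3 of them, at Gm47966, Gm19554 and Gm23652, were more than 2-fold higher in replicate 2. With 1 library per replicate the ratio has no test.

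**Figure D4:**
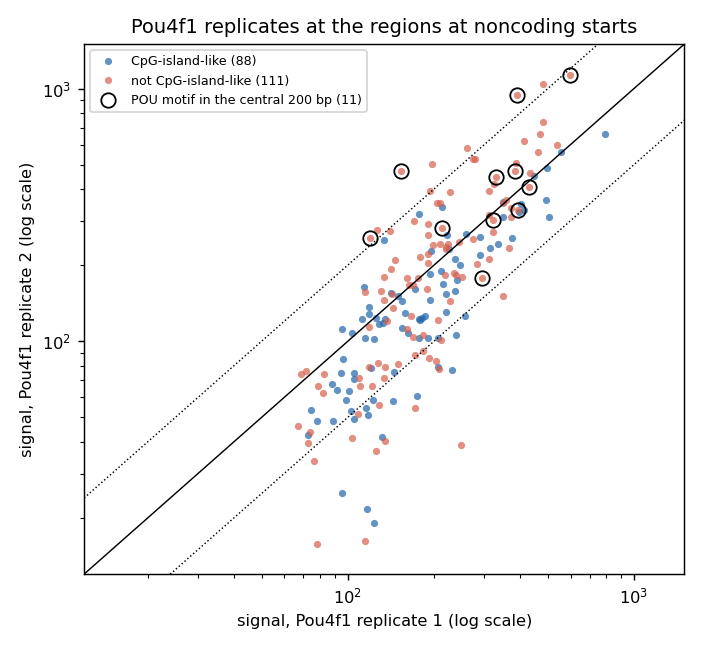
Signal in Pou4f1 replicate 1 (horizontal, log scale) against replicate 2 (vertical, log scale) at the 199 regions. The solid line marks equal signal and the dotted lines 2-fold differences; the 8 points above the upper dotted line are all regions that are not CpG-island-like, and rings mark the 11 with the POU motif.

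Distance from coding genes ran along the same lines. Regions over 1 to 10 kb from a coding start were CpG-island-like in 58.3% of 60 cases (95% exact binomial interval 44.9 to 70.9), those over 10 to 50 kb in 45.5% of 77 and those over 50 kb in 29.03% of 62 (interval 18.2 to 41.9). The POU motif was at the centre of 1, 3 and 7 of them. Median signal in replicates 1 and 2 was 148 and 105 in the nearest group, 191 and 178 in the middle one and 198 and 207 in the farthest. Of the nearest 60 regions, 16 were more than 2-fold higher in replicate 1 and 0 in replicate 2. Regions centred within 250 bp of the noncoding start were CpG-island-like in 53.5% of 114 cases, and those centred farther off in 31.8% of 85.

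The regions with the POU motif had a median signal of 331 and 409 in Pou4f1 replicates 1 and 2, beside 183 and 155 in the whole set. The highest mean Pou4f1 signal of all 199 was at Gm44441, a TEC locus in an intron of Chl1, a neural cell adhesion gene. It lay 52255 bp from the nearest coding start, that of Chl1. Its region (chr6:103563263-103563907) had a signal of 596 in replicate 1 and 1127 in replicate 2, with 18.9 in IgG and 11.03 in negative control. The groups did not overlap, as in 96.5% of the table, and the log2 difference was 5.73 ± 0.59 SE (limma adjusted p = 0.00691).

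Gm47966, a lincRNA on chromosome 10, carries the same 10-letter match as Gm44441 in its sequence above. Its region (chr10:126718412-126718985) had 391 and 939 in Pou4f1 with both IgG libraries at 0 (limma adjusted p = 0.00267). Both Pou4f1 values stood far above 0, though replicate 2 was more than 2-fold the other.

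At Gm48206, a TEC locus within Tmtc2, the signal was 384 and 470 in Pou4f1, and at the lincRNA Gm807 it was 431 and 409. At AC162035.2, a lincRNA on chromosome 18, it was 395 and 330.0. In all 3 the IgG libraries were both at 0, and they shared a limma adjusted p of 0.00222, the smallest among the 199.

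A530041M06Rik, transcribed from an intron of Lrig2, had 331 and 445 in Pou4f1 against 10.3 and 0. The region at 1810044K17Rik, a lincRNA start 1.49 kb from the microRNA gene Mir802, had 321 and 301 against 14.7 and 0. Gm45191, within the protein kinase gene Prkcb, had 214 and 280.1 against 0 and 12.3. These 3 each had a 0 in 1 IgG library, and their adjusted p ran from 0.0313 to 0.0437 in limma.

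Among these regions the replicates were farthest apart at Gm19554, with 154 in replicate 1 and 473 in replicate 2 against 9.94 and 14.3 in IgG (log2 difference 4.39 ± 0.76 SE, limma adjusted p = 0.0214). At Gm14540, antisense within Chchd3, replicate 1 was the higher, with 295 and 178 against 0 and 0. Gm23652, classed as a microRNA, had 119.7 and 255.5 against 14.3 and 0 and missed the threshold (limma adjusted p = 0.0575). Of the 11 regions with the motif, 10 were called, beside 63.8% of the whole set, and 5 of the 11 were at 0 in both IgG libraries.

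The other regions at the top of the ranking by mean signal had no POU motif in their central 200 bp. Gm32736, a lincRNA on chromosome 5, had 481 and 1042 in Pou4f1 against 7.89 and 0 (log2 difference 7.89 ± 1.37 SE, limma adjusted p = 0.0214). Gm45336, a lincRNA on chromosome 8, had 483 and 734 against 15.3 and 0 (limma adjusted p = 0.0363). In both, replicate 2 was the higher and the groups did not overlap, the latter as in 96.5% of the table.

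Several types were led by a region named only by its number. The highest antisense region was at Gm9754 (387 and 509 against 10.8 and 0, limma adjusted p = 0.0307). A second region at a start of the same gene was among the 5 lowest of the set, with 67.1 and 46.2 against 13.8 and 7.79. Its difference was below 0 once scaled to column totals. These totals are sums over the deposited regions, chosen from Pou4f1 signal, so the scaling takes out part of the difference itself. The highest pseudogene region was at Gm45880 (432 and 462, with IgG and negative control at 0), and the highest processed transcript was Zswim6 (413 and 330.5 against 11.1 and 0, limma adjusted p = 0.0336).

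The genes for small structural RNAs included the highest replicate 1 value of the set. Rnu3b1, Rnu3b2, Rnu3b3 and Rnu3b4 encode U3, the snoRNA needed for the early cleavages of the ribosomal RNA precursor, and lie on chromosome 11 within introns of Tex14. At Rnu3b1 the signal was 789.6 and 659 in Pou4f1 against 0 and 21.9 in IgG and negative control (log2 difference 7.24 ± 1.82 SE, limma adjusted p = 0.0426). At Rnu3b2 it was 446 and 452 against 20.7 and 16.2 (limma adjusted p = 0.00463). At Rnu3b4 it was 372 and 311 against 18.7 and 11.1 (limma adjusted p = 0.00737).

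Rnu3b3 had 366 and 234 against 0 and 20.2 and missed the threshold (limma adjusted p = 0.0568). Its groups did not overlap either, as in 96.5% of the table. All 4 copies are 100% identical over the 215 bp of the RNA and over the 250 bp upstream. Between 32.9% and 61.4% of the 64-base words of these regions occur more than once in the genome, so reads from 1 copy can be placed at another, and the 4 values are uncertain as separate measurements.

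Rnu1a1, a gene for U1, which pairs with the 5′ splice site, also lies in Tex14 and had 211 and 101 in Pou4f1 against 22.6 and 7.22 (log2 difference 3.41 ± 0.82 SE, limma adjusted p = 0.0395). Replicate 1 was more than 2-fold above replicate 2 there, and the difference changed sign (-0.525) with libraries scaled to their column totals. Rnu2-10 encodes U2, which pairs with the branch point, and had 251 and 179.9 against 0 and 11.5 (limma adjusted p = 0.0429). Rn7s2, for the RNA of the signal recognition particle, had 237 and 212 against 0 and 14.5 (limma adjusted p = 0.0494).

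A further 3 genes, named only by number, proved to be U2 copies by sequence. Gm24950 and Gm23971 were 100% identical to Rnu2-10 over 191 bp and Gm24497 99.0%, while their 250 bp upstream were 95.6%, 65.6% and 30% identical to its own. Signal at Gm24950 was 212 and 189 against 8.54 and 5.95 (limma adjusted p = 0.00505), and at Gm23971 177 and 122 against 5.83 and 0 (limma adjusted p = 0.0290). At Gm24497, on another chromosome, it was 150.0 and 81.5 against 10.1 and 22.6 (limma adjusted p = 0.0391), and that scaling turned its difference to -1.16. In the 3 regions the groups did not overlap, as in 96.5% of the table. Of their 64-base words, 57.5%, 57.03% and 10.9% were repeated.

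The octamer shown above for these genes sat at nearly the same place in each. It lay 225 to 230 bp before the RNA in Rnu2-10, Gm24950, Gm23971 and Gm24497 and 223 bp before it in Gm24407, an snRNA gene with a signal of 239 and 106 in Pou4f1 with IgG and negative control at 0 (limma adjusted p = 0.0039). In Mir210 it was 285 bp before the hairpin. None of the 14 small structural RNA regions had the POU motif anywhere, while 5 of 14 had the octamer (35.7%, 95% exact binomial interval 12.8 to 64.9), beside 9.05% of the 199, 2.63% of coding starts and 4.998% of regions away from starts in whole regions of any length. In none of the 14 was it in the central 200 bp, and 4 of the 5 are near-copies of 1 gene. Of the 199 regions, 18 had the octamer, and 7 of these were at lincRNAs. Gm44441, with the POU motif, had it as well. It did not follow base composition, with 10.2% of CpG-island-like regions and 8.11% of the others. Octamer and signal were not tested against each other.

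**Figure D5:**
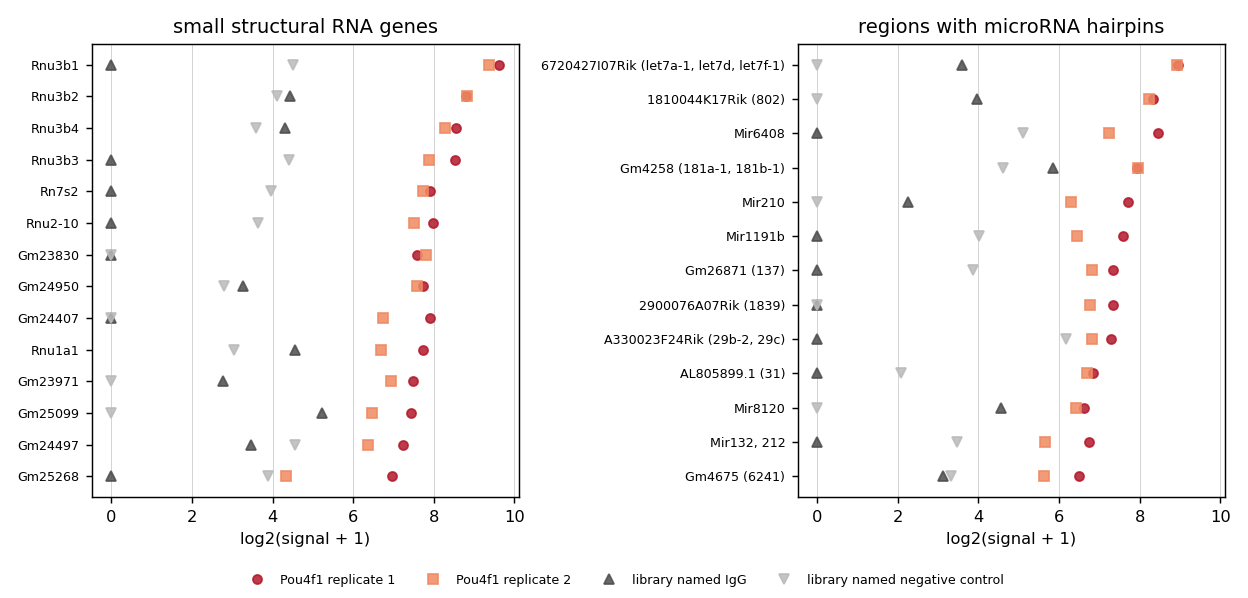
Signal on the log2(signal + 1) scale (horizontal axes) in the 4 libraries at the 14 regions of small structural RNA genes (left) and the 13 regions with a RefSeq microRNA hairpin within 1 kb or inside the nearest noncoding gene (right, numbers of the microRNAs in parentheses), ordered by summed Pou4f1 signal. Both Pou4f1 symbols lie to the right of both IgG symbols in every row, with the narrowest gap at the host of 29b-2 and 29c on the right and at Gm25268 on the left.

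MicroRNAs are short RNAs that pair with messages through their seed, bases 2 to 8. Of the hairpins in the RefSeq table used here, 18 lay on the strand of the nearest noncoding gene and either inside that gene or within 1 kb of the region, and they fell to 13 of the 199 regions. Of these 13, 7 were called higher (64.8% over the table). They were picked out by position after the values had been seen. The region at Gm27032 is not among them. GENCODE places a start of Mir124a-3 within 1 kb of it, but the RefSeq table has no entry for this hairpin. The mature sequences (RefSeq, GRCm38.p6) of the hairpins that share a seed within a region are shown with the seed in capitals, together with those of Mir137, Mir210 and Mir31.
let-7d-5p: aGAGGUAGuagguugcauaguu
let-7f-5p: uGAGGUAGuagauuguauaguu
let-7a-5p: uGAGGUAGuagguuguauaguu
miR-181a-5p: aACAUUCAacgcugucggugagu
miR-181b-5p: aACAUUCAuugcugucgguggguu
miR-29b-3p: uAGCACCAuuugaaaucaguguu
miR-29c-3p: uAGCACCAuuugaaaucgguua
miR-132-3p: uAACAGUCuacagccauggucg
miR-212-3p: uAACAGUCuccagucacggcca
miR-137-3p: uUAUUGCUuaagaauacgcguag
miR-210-3p: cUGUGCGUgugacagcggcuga
miR-31-5p: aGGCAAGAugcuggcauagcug

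The strongest of these regions stood at the start of 6720427I07Rik, which spans let-7d, let-7f-1 and let-7a-1. The let-7 family, with the seed GAGGUAG above, is known for timing development, and the hairpins lie 8.12 to 10.3 kb from the midpoint of the region. The region (chr13:48545857-48546926) had 495 and 486 in Pou4f1, 11.04 in IgG and 0 in negative control (log2 difference 7.15 ± 1.46 SE, limma adjusted p = 0.0297). Its groups did not overlap, as in 96.5% of the table, and the replicates were close.

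Gm4258 spans Mir181a-1 and Mir181b-1, which lie 67.9 and 68.1 kb from its start region. The signal there was 245 and 246 in Pou4f1 and was high for IgG as well, at 56.8 and 23.6, giving a log2 difference of 2.71 ± 0.61 SE (limma adjusted p = 0.0358). It changed sign when libraries were scaled to their column totals.

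A330023F24Rik, the host of Mir29b-2 and Mir29c, had 155 and 113 in Pou4f1 against 0 in IgG and 71.1 in negative control, and was not called (limma adjusted p = 0.206). Mir137, a brain-enriched microRNA of neuronal differentiation, lies 3.51 kb from the region at Gm26871, which had 161 and 112 against 0 and 13.7 (limma adjusted p = 0.0598). At Mir212 and Mir132, neighbours that share a seed and are known to follow neuronal activity, 1 region had 106 and 49.2 against 0 and 10.1 (limma adjusted p = 0.0680). In each of the 3 the groups did not overlap, as in 96.5% of the table, and in each 1 IgG library was listed at 0 and the other was not.

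Mir210, known for its rise in low oxygen, had 208 and 77.9 against 3.77 and 0 (limma adjusted p = 0.0255). The host of Mir31, AL805899.1, had 114 and 103 against 0 and 3.22 (limma adjusted p = 0.0174), and that of Mir1839, 2900076A07Rik, 162 and 108 with IgG and negative control at 0 (limma adjusted p = 0.00234). All 3 were called, with replicate 1 the higher in each.

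Of the less studied microRNA genes, Mir6408 had 349.9 and 151 against 0 and 33.4, Mir1191b 192 and 85.8 against 0 and 15.1, and Mir8120 96.5 and 84.9 against 22.7 and 0. None of these 3 passed the threshold (limma adjusted p 0.0921, 0.0691 and 0.109). Their groups did not overlap, which held in 96.5% of the table. Of the list of microRNA precursors and hosts matched by symbol, 6 regions were members and 1, Mir210, was called, beside 64.8% over the table. A further 34 regions at such genes lay within 1 kb of a coding start and so were not members.

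Long noncoding RNAs known in the nervous system were few. Of the list of neural and eye lncRNAs, 39 names were in the annotation and 3 had a member, at Miat, Crnde and Gm27032, all called higher, where 64.8% of the table were. Miat (Gomafu, Rncr2) is a nuclear lncRNA of neurons and retinal precursors. Its region (chr5:112228638-112229368), which contains the GC-rich window shown above, had 348 and 354 in Pou4f1 with IgG and negative control at 0 (limma adjusted p = 0.00222). The replicates differed little there.

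Crnde, known from brain development and tumours, starts beside Irx5, a homeobox gene, and the midpoint of its region lay 1.44 kb from the start of Irx5. The region had 376 and 255 in Pou4f1 against 19.2 and 4.49 (log2 difference 4.88 ± 0.86 SE, limma adjusted p = 0.0220). Gm27032, whose region also has a start of the microRNA gene Mir124a-3 within 1 kb, had 112 and 122 with IgG and negative control at 0 (limma adjusted p = 0.00222). In all 3 each Pou4f1 value exceeded each IgG value, as in 96.5% of the table, and all 3 were CpG-island-like.

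Hosts of snoRNAs were less even. Together with structural RNAs they made a list of 191 annotated names, with 12 members of which 7 were called, beside 64.8% over the table. Snhg8, with 4 GC boxes in its window above, had 396 and 325 against 13.6 and 0 (limma adjusted p = 0.0394) and was the only called host. Snhg5 had 123 and 102 against 0 and 37.8, and Snhg17 68.9 and 74.6 against 0 and 13.4.

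Epb41l4aos had 106 and 74.9 against 9.34 and 0. At Snhg15 IgG was high in both libraries, at 34.4 and 32.3, beside 105 and 71.1 in Pou4f1 (log2 difference 1.35 ± 0.43 SE, limma adjusted p = 0.0641, below 0 with column totals). The adjusted p of the other hosts that were not called ran from 0.0539 to 0.144. For the 14 annotated names of imprinted and X-inactivation RNAs there were 0 members.

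Some of the regions neighbour genes for transcription factors. A list of 15 such genes was drawn up after the names of the neighbours had been seen. For 17 regions one of these was the nearest coding gene. Of the 17, 15 were called, beside 64.8% over the table, a count that describes them and tests nothing. Iroquois genes had 3. Besides Crnde, the lincRNA Gm45336 lay 108 kb from Irx5, and D730050B12Rik, a lincRNA 184 kb from Irx2, had 324 and 421 in Pou4f1 against 5.45 and 0 (limma adjusted p = 0.0175).

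Near Tle3, which encodes a Groucho co-repressor, Gm10655 at 1.34 kb had 214 and 339.9 against 0 and 12.2 (limma adjusted p = 0.0414) and Gm34424 at 99.8 kb had 134 and 145 against 6.53 and 0 (limma adjusted p = 0.0320). Gm15969, antisense within the zinc finger gene Casz1, had 229 and 144 with IgG and negative control at 0 (limma adjusted p = 0.00229). A830082K12Rik, antisense and 3.95 kb from the nuclear receptor gene Nr2f1, had 184 and 91.3 with IgG and negative control at 0 (limma adjusted p = 0.00354). Replicate 1 was more than 2-fold above replicate 2 at the last of these.

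Several others lay below the medians of the set, 183 and 155, in both replicates. Gm30731, 1.59 kb from the POU factor gene Pou3f2, had 95.1 and 75.1 against 7.49 and 0 (limma adjusted p = 0.0458). Gm41231, near Klf12, had 118 and 136 against 11.4 and 12.5 (limma adjusted p = 0.00896). Gm4675, within Sox21, had 89.0 and 48.4 against 7.63 and 8.90 (limma adjusted p = 0.0229). Gm38285, near Tshz3, had 101 and 63.8 in Pou4f1. Gm43909, within Bhlhe41, had 74.3 and 53.3, and Gm43377, within the homeobox gene Hmx1, had 72.5 and 39.7. These 3 had IgG values of 4.44 to 17.98 and adjusted p from 0.0214 to 0.0389 in limma. Scaled to the column totals, Gm41231 (-0.63), Gm4675 (-1.03), Gm38285, Gm43909 and Gm43377 all had a log2 difference below 0. That scaling shifts the median log2 difference of all regions by -2.48, so the change of sign does not show that these regions lack signal.

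Among the other neighbours the replicates differed in either direction. Gm38063, 1.14 kb from the proneural gene Atoh7, had 248 in replicate 1 but 38.8 in replicate 2, and D130079A08Rik, 5.57 kb from the start of Pou4f1 itself on chromosome 14, had 205 and 352. Haglr, in the Hoxd cluster 4.16 kb from Hoxd3, had 128 and 117 against 11.4 and 0, and Gm13750, 26.98 kb from Klf7, 311 and 392 against 0 and 20.4. These last 2 missed the threshold (limma adjusted p 0.0536 and 0.0530).

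A pair of further neighbours was singled out after the values had been seen. Gm30373, a lincRNA start 72970 bp from Thy1, a surface marker of ganglion cells, had 411 and 621 against 11.5 and 26.8 (log2 difference 4.76 ± 0.63 SE, limma adjusted p = 0.0120). At 1810026B05Rik, a lncRNA 16570 bp from the chromatin remodeller gene Chd2, Pou4f1 gave 349.6 and 310.1 against 29.9 and 29.2 (limma adjusted p = 0.00798). Both stood above an IgG signal that was not 0 in either library.

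At the low end, IgG approached or passed Pou4f1. Gm48216, a processed pseudogene on chromosome 13, was the only region with both Pou4f1 libraries below both IgG libraries, with 88.2 and 67.5 in Pou4f1 against 167 and 192 (log2 difference -1.20 ± 0.41 SE, limma adjusted p = 0.0709). Of its 64-base words, 99.8% are repeated in the genome. Unc45bos had 72.9 and 42.7 against 66.3 and 39.3, with overlapping groups (log2 difference 0.13 ± 0.56 SE, limma adjusted p = 0.838), and 28.2% of its words are repeated. In 15 of the 199 regions more than 20% of words were repeated, 8 of them at small structural RNA genes. Leaving these 15 out, an alternative added after the data were seen, left 118 of 184 regions called (64.1%, beside 64.8% over the table).

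The 5 lowest mean Pou4f1 signals were those of Unc45bos, the second region at Gm9754, Gm43377, Gm15945 and Gm29508. Gm29508, antisense within Fam181a, was last, with 77.9 in replicate 1 and 15.8 in replicate 2 against 30.3 and 0 (limma adjusted p = 0.303), and its groups overlapped. Gm15945, within Top1mt, had 76.3 and 33.6 against 8.91 and 0. Gm25268, an snRNA gene chosen after its values were seen, had 123 and 19.1 against 0 and 13.9, the widest ratio between replicates among the structural RNAs.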

How the data were processed

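Pou4f1 and IgG CUT&Tag values were compared at noncoding starts of E16.5 mouse retinas. Per the study's methods, reads were trimmed and masked, aligned to mm10 with Bowtie2 (2.4.5 in the submitters' processing notes), and regions were called with SEACR in relaxed mode. The authors deposited a table of signal, with 1 column for each of 4 libraries. No source used here states its scaling, the read depth, duplicate removal or whether replicates were pooled for calling. Signal times region length came in whole multiples (tolerance 0.05) of a step. The step was 45.0, 61.2, 76.2 and 88.9 in Pou4f1 replicates 1 and 2, IgG and negative control. Whole multiples made up 99.975% of values in each Pou4f1 replicate and 100% in the others. The negative control was taken as IgG because rabbit IgG is the only one the methods name. The H3K9AC library was not analysed here.

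Genes came from GENCODE M21, sequence from RefSeq GRCm38.p6, and positions are counted from 1. Pou4f1 (n = 2) was tested against IgG (n = 2) by R 4.3.3 and limma 3.58.1, with log2(signal + 1) as the response and no covariates, over all 8038 regions, with Benjamini-Hochberg adjustment and a threshold of 0.05. The scale understates differences where IgG is low. The script was tested on simulated data. Shares have 95% exact binomial (Clopper-Pearson) intervals. Repeated sequence was the share of 64-base words of a region occurring more than once in the genome. The software was samtools 1.23.1, pysam 0.24.0 and scipy 1.17.1 with pandas 2.3.3, matplotlib 3.10.9, numpy 2.4.6 and Python 3.11.15.

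Members, gene lists, tests and alternatives were chosen with earlier results of these data known. Named regions are those on 4 gene lists, the 5 highest and 5 lowest by mean Pou4f1 signal, those with the POU motif, the 3 with the lowest log2 difference, those next to the 1 kb limit and the highest of each type with at least 5 members. Regions named by a neighbouring factor gene or a hosted microRNA were added after values were seen. Alternatives covered scaling, pseudocount, filter, spread model, a 2-fold minimum, left-out libraries, distance limits, gene types and motif windows.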

Additional observations from a re-analysis of the deposited data

How the results depend on the processing

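The number of regions at noncoding starts called higher in Pou4f1, 127 of 199, was 64 and 48 with IgG taken as 2 and 4 times shallower (32.2% and 24.1%, beside 36.7% and 26.8% of all regions), 41 when libraries were scaled to their column totals (20.6% beside 22.7%), which shifts the median log2 difference of all regions by -2.48, and 78 with a pseudocount of 0.1 (39.2% beside 43.4%). Leaving out 1 library at a time gave 55 to 193, with 55 and 58 without Pou4f1 replicate 1 and 2, and 191 and 193 without the library named IgG and that named negative control (27.6%, 29.1%, 96% and 97%, beside 29.4%, 30.9%, 94.4% and 95.9% of all regions). The other settings gave 104 to 186. Of the 67 named regions, some of them named for their signal, 49 were called, beside 64.8% over the table. Unc45bos changed sign with IgG 2 and 4 times shallower (-0.861 and -1.85), with the column totals (-3.88), without Pou4f1 replicate 1 (-0.254) and without the negative control (-0.245), where leaving out 1 library gave -0.254 to 0.504, and Snhg15 with IgG 4 times shallower (-0.622) and the column totals (-2.65). The column totals also reversed Gm8022 (-0.281), Gm24497 (-1.16), Gm4258 (-1.3), Rnu1a1 (-0.525), Gm41231 (-0.631), Gm4675 (-1.03), Gm43377 (-1.04), the second region at Gm9754 (-1.59), Gm43909 (-1.83) and Gm38285 (-0.867). The column totals are sums over regions chosen from Pou4f1 signal, so a lower difference under them is built in. What else moved these values was not tested.

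The POU motif share of 5.53% was 10.1% in the central 400 bp and 13.6% in whole regions, as wider windows hold more sequence, and in a split added after the data were seen it was 0% in CpG-island-like regions and 9.91% in the others. The CpG-island-like share of 44.2% was 53.1% with limits of 500 bp and 34.0% with 2 kb. The number of regions ran from 179 to 277 under the alternatives. Whether the Pou4f1 signal and the ratio of the replicates are stable under them is not judged here. No paired analysis was possible because the IgG columns carry no replicate number. IgG was 0 in 90 of the 199 regions and negative control in 92. With these zeros, 2 libraries a group and an unknown depth, small differences could not be resolved.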
